A study of Mus musculus with 1931 samples.

Results

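The genes of platelet-derived growth factor (PDGF) signalling described here are the receptors *Pdgfra* and *Pdgfrb* and the ligands *Pdgfa*, *Pdgfb* and *Pdgfc*, 5 of the 20999 genes in the expression table. They were chosen by name. PDGF ligands are secreted dimers that bind and pair receptor tyrosine kinases on the surface of the receiving cell, after which adaptors and enzymes dock on the phosphorylated receptor tails and activate the MAP kinase and PI3 kinase cascades. PDGF-AA and PDGF-CC act mainly through the α receptor, while PDGF-BB binds both receptors. In the mouse embryo around implantation, the α receptor is a known marker of the primitive endoderm and its descendants, and PDGF-A is made by the neighbouring epiblast and trophoblast lineages.

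The 3D cells came from 1 pool of Rosette-to-Lumen stage embryoids (RtL-embryoids), aggregates of 3 mouse embryonic stem cell (ESC) lines, sorted singly onto plates 3, 4 and 5. Kermit ESCs, which have no inducible transgene, report Oct3/4 by GFP. In 5-Factor ESCs doxycycline (DOX) switches on *Ets2*, *Gata3*, *Eomes*, *Tfap2c* and *Cdx2*, and iGATA6 ESCs, marked with mCherry, carry a DOX-inducible *Gata6* transgene. The RtL-embryoids received 2 µg/ml DOX for 3 days and none for the following 24 h. Cells were sorted as Epi-like (GFP positive), VE-like (mCherry positive) or ExE-like (positive for the surface protein CD40), each negative for the other 2 signals. The 2D mono-cultures, 1 each, were GFP-sorted Kermit ESCs in 2i/LIF without DOX, iTSC from 5-Factor ESCs in trophoblast stem cell medium with FGF4 and heparin that mouse embryonic fibroblasts had conditioned, and iXEN cells from iGATA6 ESCs in extraembryonic endoderm (XEN) medium. The iTSC and iXEN cultures had the same DOX treatment as the RtL-embryoids, with 24 h without it at the end.

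GEO's labels give the well of each 3D cell and not its lineage. Following the rule for these groups, wells in columns 1 to 8 are called Epi columns, columns 9 to 16 VE columns and columns 17 to 24 ExE columns, and the names were checked against markers. Each condition was 1 sample and the 3 plates were technical splits of 1 pool. No test between conditions was therefore possible, no p-value was computed, and each 3D mean is given with its values on plates 3, 4 and 5. Levels are in TP10k, a cell's deposited TPM, which correct for transcript length, rescaled to sum to 10000, so levels of different genes can be compared. Shares of cells above 0 have exact 95% Clopper-Pearson intervals, which cover counting error only, and SMART-seq2 has no molecular identifiers. For a share of 0, the limit given is 3 counts over the number of cells, somewhat below the exact upper bound.

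Of 1931 wells, the 1406 with 2500 or more genes above 0 entered the comparisons. The Epi columns made up 22.3% of these cells, the VE columns 22.4% and the ExE columns 25.1%, with medians of 4823, 5348 and 5396 genes per cell. ESCs made up 10.1% and iTSC and iXEN cells 10.03% each, with medians of 9093.5, 8537 and 8699 genes. The minimum kept 82.2%, 82.2% and 91.9% of the wells of the 3D blocks and 44.8%, 49.8% and 77.5% of those of ESCs, iTSC and iXEN cells. A gene at low level is thus more often seen above 0 in 2D than in 3D cells. Plate 3 was the deepest 3D plate, with a median of 6622 genes in the VE columns against 4913 and 4957 on plates 4 and 5.

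Markers fitted the names of the Epi and VE columns. All 8 Epi markers had their highest 3D mean in the Epi columns, all 10 VE markers in the VE columns and 9 of 10 ExE markers in the ExE columns, the exception being *Tead4*. With each marker scaled over the 3D cells, the list of the block was the highest of the 3 in 99.4%, 98.7% and 89.5% of cells. With unscaled markers this held for 100%, 97.8% and only 50.4% of cells, and 37.7% of the ExE-column cells then scored highest for the Epi list, which holds *Utf1* and *Zfp42*, found in all blocks. *Sox2* and *Nanog*, also on the Epi list, were above 0 in 50.7% and 31.4% of ExE-column cells. For part of its ExE-like cells the paper proposes incomplete reprogramming. The reason for the Epi scores was not tested. The scaled form was chosen after the unscaled result had been seen. *Pou5f1*, an epiblast marker, still had a mean of 4.53 TP10k in the VE columns against 14.2 in the Epi columns. Of 10 parietal endoderm markers, 7 were also highest in the VE columns, where their summed mean was 124.7 TP10k against 2.15 in the Epi and 9.30 in the ExE columns. Fibroblasts are known to express PDGF receptors. The means of 10 fibroblast markers summed to 0.0579 to 0.0948 TP10k over the 6 groups, highest in iTSC, and the median cell of each 3D block was at 0. Their part in the receptor levels was not tested.

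*Pdgfra* (ENSMUSG00000029231.15) lies on the plus strand at chr5:75152292-75198215 and *Pdgfa* (ENSMUSG00000025856.15) on the minus strand at chr5:138976014-138997370, both on the same chromosome. *Pdgfc* (ENSMUSG00000028019.9) is at chr3:81036416-81214040 and *Pdgfb* (ENSMUSG00000000489.7) at chr15:79995874-80014977 (GRCm38, Gencode vM21). All 4 overlap an antisense gene in this annotation. The libraries keep no strand, so shared exon sequence of such pairs cannot be told apart.

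To show the receptor and the ligand with the most opposite patterns, the 250 bases before the start of transcription of *Pdgfra* (chr5:75152001-75152250) and *Pdgfc* (chr3:81036166-81036415), both on the plus strand, are printed from RefSeq (GRCm38.p6), with every CG dinucleotide in capitals.
Pdgfra: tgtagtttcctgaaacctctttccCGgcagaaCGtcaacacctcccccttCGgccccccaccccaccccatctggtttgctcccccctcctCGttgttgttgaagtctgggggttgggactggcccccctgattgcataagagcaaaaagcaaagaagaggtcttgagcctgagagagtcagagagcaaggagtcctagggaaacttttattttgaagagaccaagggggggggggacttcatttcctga
Pdgfc: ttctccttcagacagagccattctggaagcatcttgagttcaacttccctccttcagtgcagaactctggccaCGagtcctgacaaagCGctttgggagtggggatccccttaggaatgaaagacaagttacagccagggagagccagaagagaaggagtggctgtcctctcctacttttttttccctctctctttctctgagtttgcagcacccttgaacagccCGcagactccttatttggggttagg
The *Pdgfra* window holds 4 CG dinucleotides and the *Pdgfc* window 3, against a median of 6 over the same 250 bases of 32851 RefSeq promoter windows. The 2 RefSeq windows of *Pdgfa* hold 19 and 28. The GC box GGGCGG, searched on both strands, occurs 1 and 2 times in the *Pdgfa* windows and 0 times in the printed ones, and 32.7% of all windows hold it. The letters GATA, the core of the motif that GATA factors bind, were found on neither strand of any of these 4 windows, while 53.6% of all windows hold them. The *Pdgfra* and *Pdgfc* windows thus hold somewhat fewer CG dinucleotides than the median window, and both *Pdgfa* windows hold more.

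*Pdgfra*, the α receptor, was found in nearly every VE-column cell and in few cells of the other blocks. Its mean in the VE columns was 0.806 TP10k, with 0.805, 0.730 and 0.889 on plates 3, 4 and 5, and 94.6% of cells (91.5 to 96.8) were above 0. Among VE-column cells, the lowest value was 0, the median 0.641 and the highest 5.98 TP10k, and the quartiles of the cells above 0 were 0.419 and 1.13. The gene was therefore not carried by a few cells, since the highest cell held 2.36% of the sum.

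In the Epi columns *Pdgfra* had a mean of 0.00381 TP10k, with 0.00989 on plate 3, 0 on plate 4 and 0.00186 on plate 5. It was above 0 in 5 cells (1.59%, 0.519 to 3.68), and 1 of these cells held 71% of the sum. On plate 4 it was seen in 0 cells, which allows a share of up to 2.80%. In the ExE columns the mean was 0.0327 TP10k, with 0.0178, 0.0295 and 0.0520 on the plates, and 26 cells (7.37%, 4.87 to 10.6) were above 0. The VE-column means were above those of both other blocks on every plate, without overlap. The mean in the VE columns was 211.5-fold that in the Epi columns, and 24.6-fold that in the ExE columns (45.3-fold, 24.8-fold and 17.1-fold by plate). Against the Epi columns the plates gave 81.4-fold on plate 3 and 477.6-fold on plate 5, with the Epi columns at 0 on plate 4, so the size of this ratio rests on a few Epi-column cells.

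**Figure D1:**
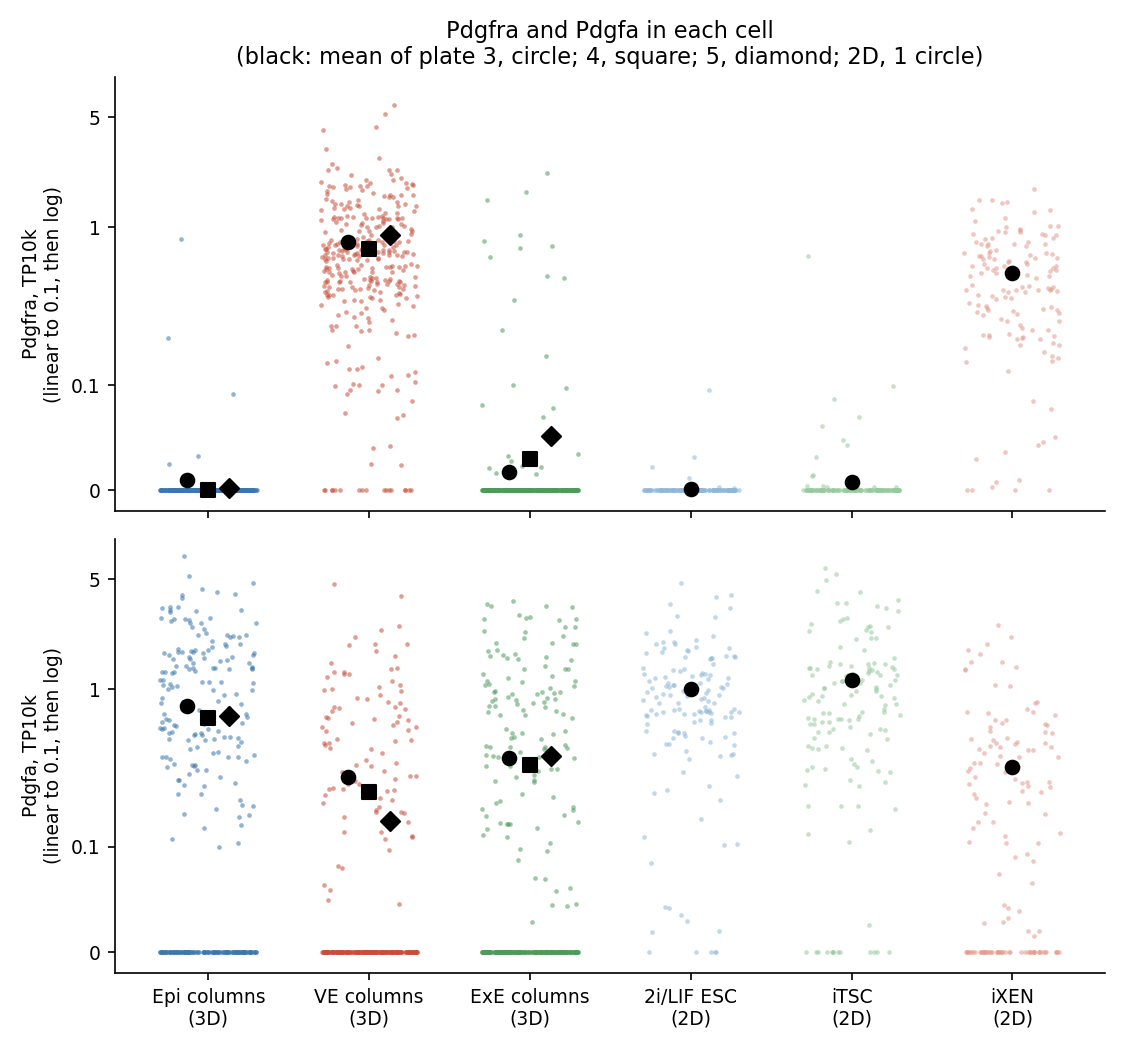
*Pdgfra* (top) and *Pdgfa* (bottom) in each kept cell, in TP10k, on an axis that is linear up to 0.1 and logarithmic above. Coloured points are cells and black symbols the means of plates 3, 4 and 5 (3D) or of the 1 culture (2D). *Pdgfra* was above 0 in 94.6% of VE-column and 97.2% of iXEN cells, while *Pdgfa* was spread over all 6 groups.

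The 2D cultures had the same order of *Pdgfra*. iXEN cells, the 2D counterpart of the VE-like cells, had a mean of 0.512 TP10k and 97.2% of cells above 0 (92.9 to 99.2). In iTSC the mean was 0.00819, with 17 cells above 0 (12.1%, 7.18 to 18.6), of which 1 held 57.4% of the sum. ESCs had the lowest mean of the 6 groups, 0.00121 TP10k, with 7 cells above 0 (4.93%, 2.0 to 9.89). The lowest VE plate, at 0.730, stood above iXEN, and the lowest ExE plate, at 0.0178, above iTSC, whereas the iTSC mean lay within the range of the Epi plates.

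The 17 VE-column cells without *Pdgfra* were of different kinds. Of these, 4 had 2 or fewer of the 10 VE markers above 0, and 11 had at least 8. They had a median of 4376 genes, against 5375 in the VE-column cells with *Pdgfra*. The sum of the gene in the ExE columns came mostly from cells with VE markers. The 16 ExE-column cells with 8 to 10 VE markers made up 82.4% of it, with 12 of 16 above 0 and a mean of 0.594 TP10k. Of the ExE-column cells with 2 or fewer VE markers, 70.5% of the block, 7 (2.81%) were above 0, at a mean of 0.00523, and in the 84 cells with 3 to 5 VE markers 6 (7.14%) were above 0, at a mean of 0.00834. By scaled lists, the 29 ExE-column cells that scored highest for VE markers had a mean of 0.329 TP10k, and the 89.5% that scored highest for ExE markers 0.00352.

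**Figure D2:**
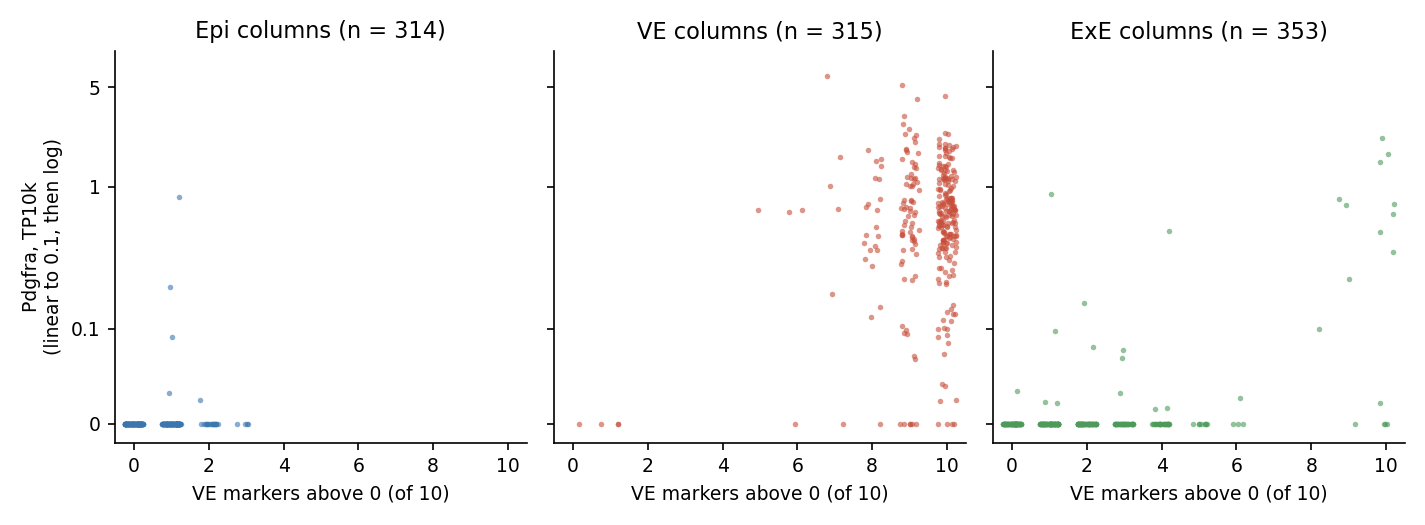
*Pdgfra* per cell in TP10k (linear up to 0.1, then logarithmic) against the number of the 10 VE markers above 0, with a panel for each 3D block and 1 point per cell. In the ExE columns, 12 of the 16 cells with 8 to 10 VE markers were above 0, against 2.81% of the cells with 2 or fewer.

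*Pdgfrb*, the β receptor, was near or at 0 in the 3D cells. The gene (ENSMUSG00000024620.11) lies at chr18:61045150-61085061 on the plus strand. It was above 0 in 1 Epi-column cell (0.318%, 0.00806 to 1.76), 3 VE-column cells (0.952%, 0.197 to 2.76) and 10 ExE-column cells (2.83%, 1.37 to 5.15). The means were 0.000626, 0.00122 and 0.00290 TP10k, and their plate values overlapped. iTSC had the highest mean, 0.0238 TP10k, with 34 cells above 0 (24.1%, 17.3 to 32). ESCs followed with 0.00465 TP10k and 12 cells above 0, and iXEN cells with 0.00227 and 8 cells. In the VE columns the mean of the α receptor was 658.2-fold that of the β receptor, a ratio that rests on 3 cells with the β receptor. By plate it was 603.3-fold and 363.5-fold on plates 3 and 5, with the β receptor at 0 on plate 4. In iXEN cells the ratio was 225.4-fold. The order was the other way round in ESCs and iTSC, where the α receptor reached 0.261 and 0.345 times the level of the β receptor, both at low levels.

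*Pdgfa*, the ligand of the α receptor, was found in all 6 groups and was the member with the widest expression. In the Epi columns its mean was 0.704 TP10k, with 0.782, 0.657 and 0.676 on plates 3, 4 and 5, and 54.1% of cells (48.5 to 59.7) were above 0. In the ExE columns the mean was 0.358 (0.368, 0.331 and 0.376) with 38.2% of cells above 0 (33.1 to 43.5). In the VE columns it was 0.219 (0.277, 0.224 and 0.147) with 96 cells (30.5%, 25.4 to 35.9). On each plate the Epi columns were highest and the VE columns lowest, and the plate ranges of the 3 blocks did not overlap.

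The Epi mean of *Pdgfa* was 3.22-fold the VE mean, with 2.82-fold, 2.94-fold and 4.62-fold by plate. Epi exceeded ExE by 1.96-fold (2.12-fold, 1.99-fold and 1.80-fold), and ExE exceeded VE by 1.64-fold (1.33-fold, 1.48-fold and 2.57-fold). Among the cells above 0, the median was 0.994 TP10k in the Epi columns, 0.690 in the ExE columns and 0.472 in the VE columns. Both the share of cells and the level in those cells thus followed the same order.

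In 2D, *Pdgfa* was highest in iTSC, with a mean of 1.14 TP10k and 90.8% of cells above 0 (84.7 to 95). ESCs had a mean of 1.01 with 96.5% of cells (92 to 98.8), and iXEN cells had 0.320 with 92 cells (65.2%, 56.8 to 73.1). The endoderm group was the lowest in 2D as in 3D. The order of the embryonic and trophoblast groups was not shared, since Epi stood above ExE in 3D and iTSC above ESCs in 2D.

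*Pdgfc*, whose product is secreted in a latent form and binds mainly the α receptor, was an Epi-column and ESC transcript at lower level. Its mean in the Epi columns was 0.103 TP10k (0.116, 0.0579 and 0.136 on the plates), with 64 cells above 0 (20.4%, 16.1 to 25.3). In the ExE columns it was 0.0426 (0.0495, 0.0520 and 0.0255) with 28 cells (7.93%, 5.34 to 11.3). In the VE columns it was 0.00102 (0.00160, 0 and 0.00146) with 7 cells (2.22%, 0.898 to 4.52). Epi and ExE columns stood above the VE columns on every plate, but on plate 4 the Epi mean was only 1.11-fold the ExE mean, against 2.35-fold and 5.35-fold on plates 3 and 5.

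ESCs had the highest *Pdgfc* of all groups, 0.204 TP10k in the mean, with 85.2% of cells above 0 (78.3 to 90.6). iTSC had 0.00636 with 14 cells above 0 (9.93%, 5.54 to 16.1) and iXEN cells 0.00385 with 10 (7.09%, 3.45 to 12.7). Both means were above every VE plate and below every Epi and ExE plate. In the ExE columns *Pdgfc* was above 0 in 5 of the cells with *Pdgfa* (3.70%) and in 10.6% of the cells without it, while in the Epi columns these shares were 27.1% and 12.5%.

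*Pdgfb*, which binds both receptors, was rare in 3D. It was above 0 in 4 Epi-column cells (1.27%, 0.348 to 3.23), 10 VE-column cells (3.17%, 1.53 to 5.76) and 11 ExE-column cells (3.12%, 1.57 to 5.51). The block means of 0.00505, 0.0187 and 0.00796 TP10k overlapped by plate, and 2 VE-column cells of plate 5 made that plate's mean of 0.0407. iTSC stood out with 0.1 TP10k and 58 cells above 0 (41.1%, 32.9 to 49.7), against 0.0205 in iXEN cells and 0.00675 in ESCs. *Pdgfd*, the remaining ligand gene, had means of 0.000623 to 0.0232 TP10k over the 6 groups.

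**Figure D3:**
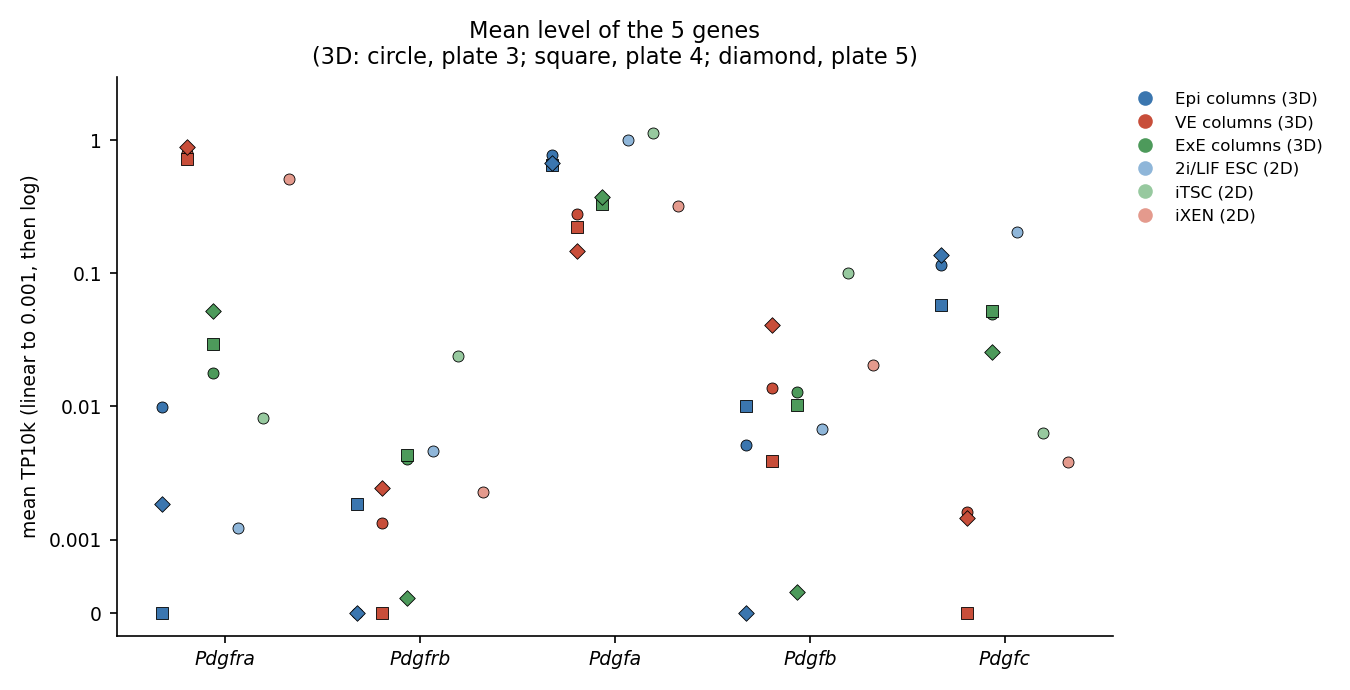
Mean level of each of the 5 genes by group in TP10k (linear up to 0.001, then logarithmic). Each 3D block has 3 symbols, for plates 3, 4 and 5, and each 2D culture has 1. *Pdgfra* was highest in the VE columns and iXEN cells, *Pdgfc* in ESCs and the Epi columns, and *Pdgfb* and *Pdgfrb* in iTSC.

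To set these differences against all genes, a gene was called where its mean differed at least 2-fold in the same direction on plates 3, 4 and 5, among genes found in 10% or more of the cells in either group. Of the 5 genes, 3 passed this filter between VE and Epi columns. All 3 were called, *Pdgfra* higher in the VE columns and *Pdgfa* and *Pdgfc* lower. *Pdgfra* and *Pdgfc* passed the filter only through the block where they were high, so their calls add nothing to their levels. Of the 10662 genes tested 22.5% were called, 1233 higher and 1169 lower. With 0.01 TP10k added to both means, the log2 ratios were 5.88 for *Pdgfra*, -1.64 for *Pdgfa* and -3.36 for *Pdgfc*. Only 29 tested genes had a larger ratio than *Pdgfra*, and 98.4% of them a larger one than *Pdgfc*.

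Between VE and ExE columns, *Pdgfra* was called higher, as were 5.68% of 10836 genes, at a log2 ratio of 4.26 that 16 genes exceeded. Here too it passed the filter only through the VE columns, so its call adds nothing to its levels. *Pdgfa* was tested and not called (log2 ratio -0.69, with 10.2% of genes called lower), and the other members did not pass the filter. *Pdgfc* had a log2 ratio of -2.26 there. Among the cells whose highest unscaled marker list was that of their block, the ratio of *Pdgfra* rose to 5.99, and with scaled lists to 5.93. Between Epi and ExE columns, *Pdgfa* (0.95) and *Pdgfc* (1.11) were tested and neither was called, while 5.61% of genes were called higher in the Epi columns and 9.92% lower. *Pdgfa* missed the 2-fold limit on plates 4 and 5, and *Pdgfc* on plate 4. These comparisons share blocks and are not independent of each other.

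**Figure D4:**
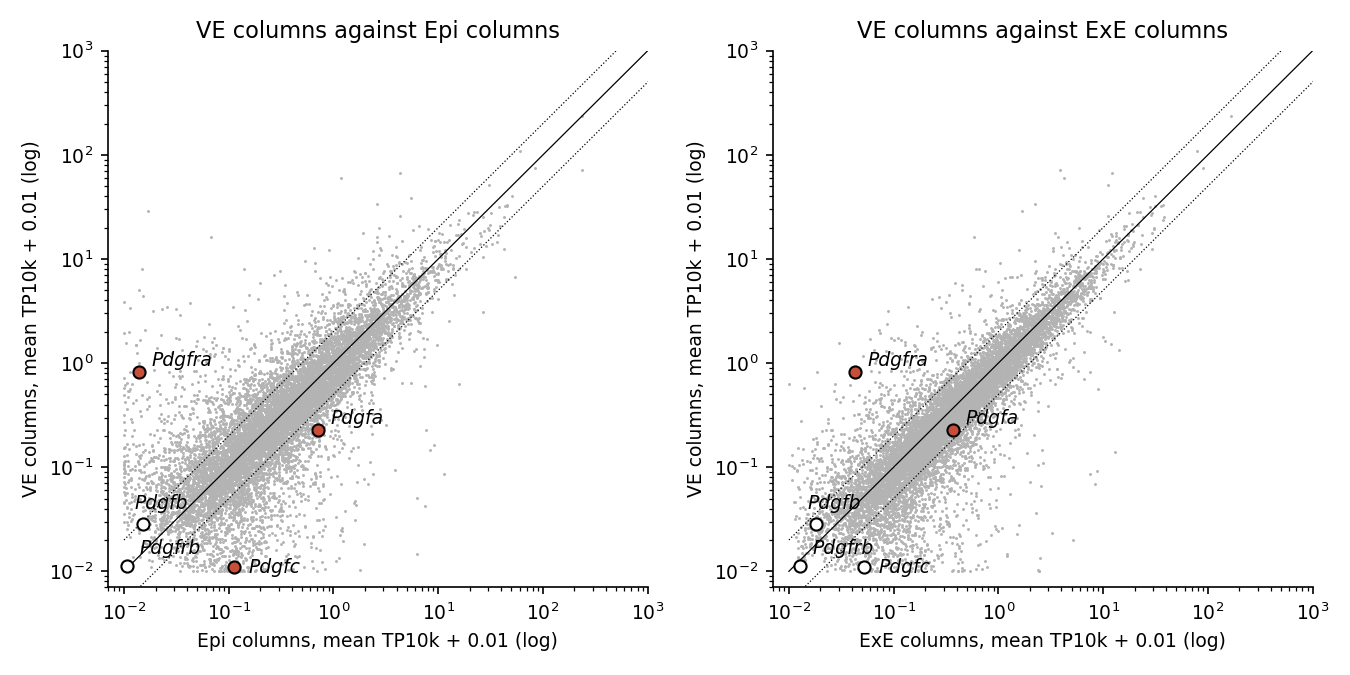
Mean level in the VE columns against the Epi columns (left) and ExE columns (right), each mean plus 0.01 TP10k on logarithmic axes. Grey points are the 10662 and 10836 genes tested, filled points members that passed the filter and open points members that did not. The solid line is equality and the dotted lines are 2-fold, with *Pdgfra* far above and *Pdgfc* far below them.

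The 3D blocks were then set beside the 2D cultures, which differ from them in plate and number of genes per cell as well as in culture, and these cannot be told apart. *Pdgfra* was 1.57-fold higher in the VE columns than in iXEN cells (1.57-fold, 1.43-fold and 1.74-fold by plate) and none of the 3 members tested was called. Of all genes, 1.76% were called higher in the VE columns and 4.58% lower. *Pdgfa* was 1.46-fold higher in iXEN cells, and 1.15-fold, 1.43-fold and 2.18-fold so by plate.

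Between ExE columns and iTSC, 4 of the 5 genes were tested and all 4 were called. *Pdgfb*, *Pdgfrb* and *Pdgfra* passed the filter only through iTSC, whose cells had more genes above 0. The number called is thus partly set by the filter. *Pdgfb* and *Pdgfrb* were high in iTSC, whereas *Pdgfra* was above 0 in 12.1% of iTSC, at a lower mean, against 7.37% of ExE-column cells. *Pdgfa* was 3.19-fold, *Pdgfb* 12.6-fold and *Pdgfrb* 8.20-fold higher in iTSC, a direction in which 8.77% of 13012 genes were called. *Pdgfra* was 3.99-fold higher in the ExE columns, as were 6.42% of genes called, and this value rests on the cells with VE markers described above. In the ExE-column cells that scored highest for ExE markers, its mean of 0.00352 TP10k was below the 0.00819 of iTSC. *Pdgfc*, which did not pass the filter, was 6.70-fold higher in the ExE columns.

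Between Epi columns and ESCs, *Pdgfa* (1.43-fold higher in ESCs) and *Pdgfc* (1.98-fold higher in ESCs) were tested and neither was called, while 5.90% of genes were called higher in the Epi columns and 5.13% lower. *Pdgfa* was lower in the Epi columns on all 3 plates, by 1.29-fold to 1.53-fold.

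The 3D blocks were compared as sources of ligand and receptor by each block's share of the sum of the 3 block means, which weights the blocks equally whatever their cell number. For *Pdgfa*, the Epi columns gave 54.9% of the sum (54.8%, 54.2% and 56.4% by plate), the ExE columns 28% and the VE columns 17.1%. For *Pdgfc*, the Epi columns gave 70.3% (69.5%, 52.7% and 83.5%), the ExE columns 29% and the VE columns 0.692%. For *Pdgfra*, the VE columns gave 95.7% (96.7%, 96.1% and 94.3%). The receptor and these ligands were thus highest in different blocks on every plate.

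*Pdgfa* made up most of the ligand transcript in every group, from 82.7% of the summed *Pdgfa*, *Pdgfb* and *Pdgfc* means in ESCs to 92.9% in iXEN cells. The summed level of these ligands was 0.812 TP10k in the Epi columns, 0.409 in the ExE columns and 0.239 in the VE columns. In the VE columns *Pdgfra* was 3.68-fold the level of *Pdgfa* (2.90-fold, 3.26-fold and 6.07-fold by plate), and in iXEN cells 1.60-fold. In the Epi columns *Pdgfa* was 184.8-fold the level of *Pdgfra* (79-fold and 363.2-fold on plates 3 and 5, with *Pdgfra* at 0 on plate 4), in the ExE columns 10.96-fold, in iTSC 139.4-fold and in ESCs 830-fold.

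Receptor and ligand transcripts were also found in the same cell. Of the VE-column cells, 61% had a receptor and none of the 3 ligands, 33.7% had both, 1.59% only a ligand and 3.81% neither. Of the Epi-column cells, 58.6% had only a ligand, 1.91% had both, 0 had only a receptor, which allows up to 0.955%, and 39.5% had neither. Of the ExE-column cells, 41.1% had only a ligand, 5.38% both, 4.82% only a receptor and 48.7% neither.

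In the VE columns *Pdgfa* was above 0 in 30.9% of the cells with *Pdgfra* and in 4 of the 17 cells without it (23.5%), an order that plates 3 and 4 did not share. The Spearman correlation of *Pdgfra* and *Pdgfa* over VE-column cells was -0.04 in the mean of the 3 plates, and from -0.11 to 0.03 by plate. In iXEN cells, 67.4% had both kinds and 29.8% only a receptor, and the correlation of *Pdgfra* with *Pdgfa* was -0.32 over the cells of 1 culture. In ESCs 86.6% and in iTSC 61.7% of cells had only a ligand, and every cell with a receptor also had a ligand.

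**Figure D5:**
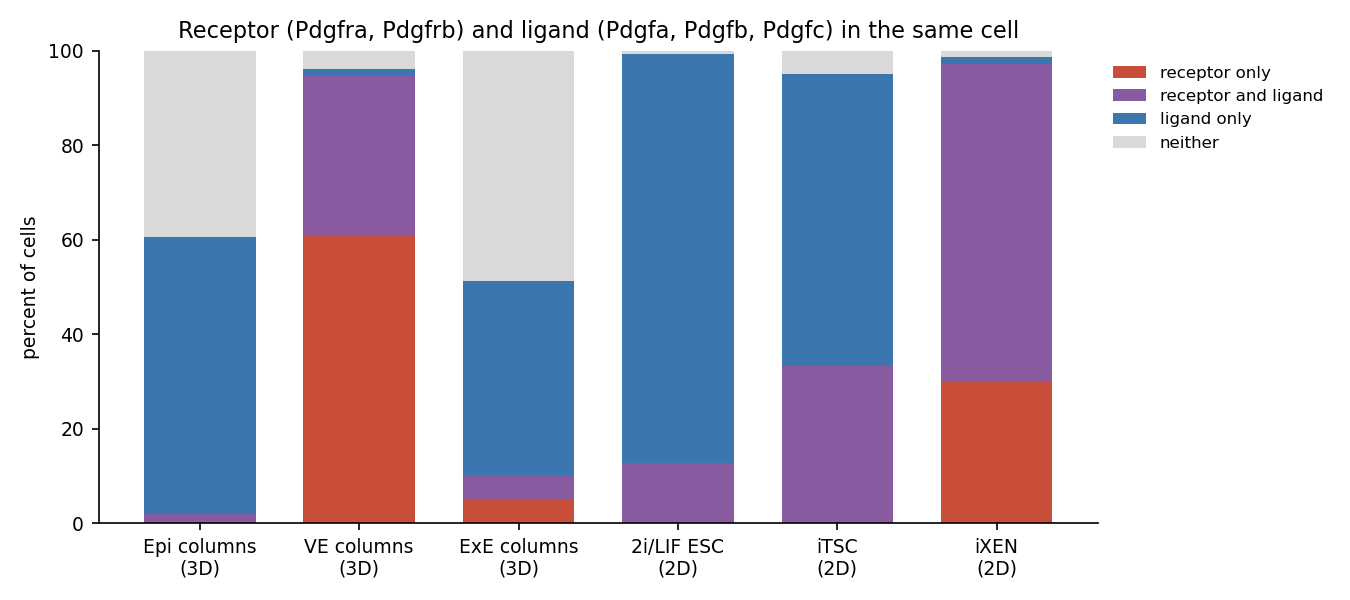
Percent of cells in each group with a receptor transcript only, a receptor and a ligand, a ligand only, or neither (stacked bars, values above 0 in the same cell). Receptor-only cells made up 61% of the VE columns and 29.8% of iXEN cells, and ligand-only cells 58.6% of the Epi columns and 86.6% of ESCs.

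The shares of cells above 0 were compared between cells with few and many genes. In the VE columns, *Pdgfra* was above 0 in 91.4%, 95.2% and 97.1% of the cells in the lowest, middle and highest of 3 equal sets by number of genes, with means of 0.958, 0.709 and 0.750 TP10k. *Pdgfa* in the ExE columns was above 0 in 26.3%, 35.9% and 52.5% of cells, with means of 0.355, 0.25 and 0.470. In the Epi columns *Pdgfa* was above 0 in 47.6%, 51% and 63.8%, with means of 0.697, 0.713 and 0.701. The shares for *Pdgfa* in the VE columns were 23.8%, 22.9% and 44.8%, and for *Pdgfc* in the ExE columns 8.47%, 7.69% and 7.63%. The shares were thus not higher with more genes in every case.

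Among cells with 5000 to 8000 genes, *Pdgfra* was again highest in the VE columns and iXEN cells, and *Pdgfa* kept its order over the 3D blocks. The 2D cells of this range still had more genes, with medians of 7345 in iXEN cells and 7435 in iTSC against 5667.5 to 6080.5 in the 3D blocks. *Pdgfra* was above 0 in 96% of VE-column cells, 3.62% of Epi-column cells, 7.58% of ExE-column cells and 94.3% of 35 iXEN cells, and in 0 of 45 iTSC, which allows up to 6.67%. *Pdgfa* was above 0 in 62.3%, 34.7% and 45% of the Epi-, VE- and ExE-column cells, and in 82.2% of iTSC and 54.3% of iXEN cells. Its mean was 0.377 TP10k in the ExE columns and 0.431 in iXEN cells, the reverse of their order over all cells. Only 6 ESCs lay in this range. *Pdgfb* was above 0 in 40% and *Pdgfrb* in 31.1% of the 45 iTSC, so both remained above the 3D shares of at most 4.74% and 4.27% in the same range.

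Well position was compared within groups. *Pdgfra* in the VE columns had means of 0.849 TP10k in rows A to H and 0.760 in rows I to P, and in iXEN cells 0.491, 0.516 and 0.528 in columns 1 to 8, 9 to 16 and 17 to 24. The low levels in iTSC were 0.00234, 0.00322 and 0.0187 in these columns and those in ESCs 0.00227, 0.00052 and 0.000853, and 1 cell held 57.4% of the iTSC sum. In the same columns, *Pdgfa* had means of 0.888, 1.03 and 1.09 TP10k in ESCs, 1.18, 1.22 and 1.03 in iTSC and 0.257, 0.407 and 0.292 in iXEN cells. *Pdgfra* thus differed little over the iXEN plate, while its spread over the iTSC plate was about as wide as its ratio between ExE and Epi columns, and that of *Pdgfa* over the iXEN plate about as wide as its ratio between ExE and VE columns.

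Beyond the 5 genes, 93 other genes of the pathway and its relatives were listed, of which 91 are in the table. Between VE and Epi columns 70 were tested, and 11 (15.7%) were called higher and 8 (11.4%) lower in the VE columns, beside 1233 and 1169 of all 10662 genes tested. Between VE and ExE columns 5 of 74 (6.76%) were called higher and 12 (16.2%) lower, beside 5.68% and 10.2% of all genes. The median log2 ratios of the list were 0.08 and -0.36, beside -0.06 and -0.14 over all genes tested. Between VE columns and iXEN cells, 3 of 79 were called higher and 4 lower, beside 1.76% and 4.58% of all genes.

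Extracellular partners of the ligands divided. *Sparc*, a matrix protein that binds PDGF and is also on the parietal endoderm list, had means of 59.9 TP10k in the VE columns, 1.17 in the Epi columns and 4.26 in the ExE columns, and 105.7 in iXEN cells. *Hspg2*, which encodes perlecan, a heparan sulfate proteoglycan of basement membranes, had 1.08, 0.0883 and 0.108. *Sdc1*, a cell-surface heparan sulfate proteoglycan, was lower in the VE columns than in both others (0.0461 against 0.154 and 0.220). *Lrp1*, an endocytic receptor that associates with the β receptor, was lower in the VE than in the Epi columns (0.0407 against 0.174). The list had 2 genes called higher and 2 lower of 6 tested between VE and Epi columns, beside 22.5% of all genes called in either direction.

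Of the enzymes that process ligands, *Plat*, the tissue plasminogen activator that cleaves latent PDGF-C and is also on that list, was at 0.527 TP10k in the VE columns and 0.581 in the ExE columns but at 0.00102 in the Epi columns. *Furin*, a proprotein convertase that matures PDGF-A, was 3.6-fold higher in the VE than in the Epi columns (0.139 against 0.0388). The activating protease and *Pdgfc* were thus highest in different blocks, though the ExE columns held both, with *Pdgfc* at 0.0426 TP10k. Of the 4 genes of the list tested between VE and Epi columns, *Plat* and *Furin* were called higher and none lower. Of all genes tested there, 22.5% were called in either direction.

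Of 23 genes for adaptors and enzymes that dock on the receptors, all passed the filter and 20 were not called between VE and Epi columns. Of all genes tested there, 22.5% were called in either direction. *Stat3*, a transcription factor, was higher in the VE columns (0.771 against 0.208 TP10k). *Grb10*, an adaptor that restrains receptor signalling, was lower (0.0392 against 0.802), as was *Plcg1*, a phospholipase (0.14 against 0.319). Against the ExE columns, *Pik3r1*, the regulatory subunit of PI3 kinase, was higher in the VE columns (0.308 against 0.0896) and *Grb10* lower (0.207 in the ExE columns). In the kinase cascades, *Akt1* was higher than in the Epi columns (0.602 against 0.195), *Mapk3*, which encodes ERK1, higher than in the ExE columns (1.90 against 0.586) and *Prkca*, a protein kinase C, lower than in the ExE columns (0.0272 against 0.205).

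Of the negative regulators, *Dusp6*, a phosphatase of ERK, and *Spry4*, an inhibitor of receptor tyrosine kinase signalling, were lower in the VE columns than in both other blocks. *Dusp6* had 0.0709 TP10k in the VE columns (0.0715, 0.119 and 0.0173 by plate), against 0.933 in the Epi and 0.823 in the ExE columns. *Spry4* had 0.0837 against 0.193 and 0.297. *Socs3*, an inhibitor of cytokine signalling, was higher in the VE than in the Epi columns (0.177 against 0.0609), and *Nf1*, a RAS inhibitor, lower than in the ExE columns (0.0851 against 0.197). Of 13 tested, 1 was called higher and 2 lower against the Epi columns, and 0 higher and 4 lower against the ExE columns, where 5.68% and 10.2% of all genes were called. Against the Epi columns 22.5% of all genes were called in either direction.

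Of the early response genes, which encode transcription factors induced soon after growth factor stimulation, 7 were tested in each comparison. Against the Epi columns 3 were called higher and 2 lower, beside 22.5% of all genes called in either direction. Against the ExE columns 1 was called higher and 2 lower, beside 5.68% and 10.2% of all genes. *Fos* (0.0366 TP10k) and *Myc* (0.0345) were lower in the VE columns than in the Epi columns (0.148 and 0.207) and the ExE columns (0.145 and 0.806). *Junb* (0.460 against 0.0582) was higher than in the Epi columns, and *Atf3* (0.354) higher than in the Epi (0.00659) and ExE columns (0.0859). *Vegfa*, a related growth factor, was 5.33-fold higher in the VE than in the Epi columns, and *Kitl*, the ligand of the related receptor KIT, was at 0.173 in the ExE columns against 0.00134 in the VE columns. None of the 3 related receptor kinase genes tested was called in either comparison.

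The endoderm regulator *Gata6* was among the genes whose pattern over the groups correlated most with that of *Pdgfra*. Over 12 profiles (3 blocks on 3 plates and 3 cultures), among 11961 other genes found in 25% or more of any group's cells, the highest Pearson correlations of log2(mean TP10k + 0.1) were those of *Ihh* (0.996), *Nostrin* (0.994), *Gata6* (0.994), *Klb* (0.992) and *Ostc* (0.992). *Pdgfra* was high only in the VE-column and iXEN profiles, so these correlations rest largely on that contrast. They do not compare the size of the levels, since *Ostc* had 5.50 TP10k in the VE and 2.93 in the Epi columns. *Gata6*, the transcription factor whose transgene the VE-like cells carry, had means of 0.818 TP10k in the VE columns, 0.00272 in the Epi columns, 0.0618 in the ExE columns and 0.621 in iXEN cells. Reads of transgene and endogenous *Gata6* could not be separated in this table. All 9 endoderm regulators listed, *Gata6* among them, were called higher in the VE than in the Epi columns, and 8 of 9 higher than in the ExE columns, with *Sox17* at 1.70 TP10k against 0.0235 and 0.0489. Of all genes tested, 1233 of 10662 were called higher than in the Epi columns and 5.68% higher than in the ExE columns.

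Within the VE columns the correlations were weak. Of 7903 genes above 0 in at least 25% of these cells, *Gata6* had the highest Spearman correlation with *Pdgfra*, 0.26 in the mean of the 3 plates (lowest plate 0.17), followed by *Glipr2* (0.26), *Lamc1* (0.26), *Sdc4* (0.25) and *Pou5f1* (0.25). *Gata4* had 0.19, *Sox17* 0.10 and *Foxa2* -0.06. The cells share 3 plates and 1 pool.

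For *Pdgfa*, the 5 most similar genes over the 12 profiles were *Kifc5b* (0.984), *Hsp90aa1* (0.967), *Cdc42ep5* (0.966), *Kat6b* (0.959) and *Gatsl3* (0.956). For *Pdgfc* they were *Ccnb1ip1* (0.968), *Patz1* (0.955), *Vegfc* (0.954), *Glod5* (0.953) and *Zfp42* (0.951), of which *Vegfc* encodes another growth factor of the PDGF/VEGF family and had means of 0.0826 TP10k in the Epi columns and 0.115 in ESCs. *Pdgfb* was most like *Senp1* (0.940), *Frrs1l* (0.932), *Fbxo17* (0.915), *Olfr1205* (0.912) and *Nav3* (0.902). These 5 genes were all highest in iTSC, as was *Pdgfb*, which lay below the added 0.1 TP10k in every other profile. The correlations of *Pdgfb* thus rest largely on the iTSC profile. *Frrs1l*, *Olfr1205* and *Nav3* had means below the added value in every group. *Pdgfrb* was in under 25% of the cells of every group and was not ranked.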

How the data were processed

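Single cells were sequenced by SMART-seq2. With kallisto, the authors pseudoaligned reads to mouse transcripts of Gencode vM16 (GRCm38), and tximport summed them per gene. The authors deposited TPM in 1 table of 20999 genes and 1931 wells, after mitochondrial, ribosomal and pseudogenes had been removed. Submitters' notes also name bcl2fastq 2.20 and Seurat. TPM keep no read number, so depth is unknown, and the number of genes above 0 stood in for it. No value was given for 39 wells.

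TPM were divided by each cell's deposited sum and multiplied by 10000 (TP10k). Cells with fewer than 2500 genes above 0 were left out, and doublets were not called. Ratios used group means, with 0.01 TP10k added for log2 values. The call rule was tested on simulated data. Members and gene lists were chosen with earlier results of these data known. Named genes were the 5 members, list genes called in VE against Epi or ExE columns (up to 4 per list, by largest mean), and the 5 genes most like each member. The alternatives varied the scale, added value, filter, fold limit and cell choice, and left out each plate. Python 3.11.15, numpy 2.4.6, pandas 2.3.3, scipy 1.17.1 and matplotlib 3.10.9 were used.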

Additional observations from a re-analysis of the deposited data

How the results depend on the processing

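Over 15 results, 29 alternative values moved and the other 110 stayed within the plates' spread (for genes called, within 1.5 times), with 0 reversed. The spread is the standard deviation of the values of the 3 plates. Leaving out 1 of these plates can hardly move a ratio or share that far, so those values staying does not show stability. Values below are log2 ratios unless said otherwise. As differences of mean log2(TPM + 1), the ratios moved to 4.98 for *Pdgfra* in VE over Epi columns (reported as 5.88), 0.471 over iXEN cells (0.644), and 1.158 for *Pdgfa* in Epi over ExE columns (0.954). *Pdgfc*, absent from most cells, moved to 0.321 in ExE over VE columns (2.26) and 0.917 in Epi over VE columns (3.36). With log2(TPM + 0.1), *Pdgfra* moved to 8.03, 7.63 and 0.433 in VE columns over Epi columns, ExE columns (4.26) and iXEN cells, *Pdgfa* to 2.47 in Epi over VE columns (1.64) and 1.69 in Epi over ExE columns, and *Pdgfc* to 0.530 in ExE over VE and 1.53 in Epi over VE columns. Cells with 5000 to 8000 genes gave *Pdgfra* 5.31 in VE over Epi columns. Cells scoring highest for their block gave *Pdgfra* 5.99 in VE over ExE columns and *Pdgfa* 0.665 in Epi over ExE columns, and with scaled markers, chosen after seeing the data, 5.93 and 0.823.

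Genes called are given here as a percent of all 20999 genes. A 4-fold limit called 2.33% higher and 2.53% lower in VE than Epi columns (5.87% and 5.57% at 2-fold), 1.08% and 2.23% in VE than ExE columns (2.93% and 5.26%), and 1.39% and 1.98% in Epi than ExE columns (2.91% and 5.14%). Requiring 25% of cells gave 3.58% lower in VE than Epi, 3.26% lower in VE than ExE and 1.80% higher in Epi than ExE columns, and no filter gave 9.15%, 8.51% and 5.09%. Leaving out each plate gave *Pdgfra* 5.72 to 6.22 in VE over Epi, 4.01 to 4.54 over ExE and 0.576 to 0.711 over iXEN, and 92.6% to 95.7% of VE-column cells. It gave *Pdgfa* 1.48 to 1.78 in Epi over VE, 0.463 to 0.882 in ExE over VE and 0.899 to 1.02 in Epi over ExE columns, and *Pdgfc* 3.15 to 3.56 in Epi over VE and 2.05 to 2.49 in ExE over VE columns. The genes called then made up 6.68% to 6.89% higher and 6.31% to 7.01% lower in VE than Epi columns, 3.24% to 3.94% and 5.66% to 6.66% in VE than ExE columns, and 3.24% to 3.85% and 6.0% to 6.57% in Epi than ExE columns. The cause of these shifts was not tested, except that fewer plates ease the call rule. No paired analysis was possible because each condition was 1 sample and well numbers only name wells.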

Other observations

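Wells below the minimum of 2500 genes were not used in the comparisons. Among the 68 such wells of the VE columns, with a median of 24 genes, *Pdgfra* was above 0 in 7 (10.3%, exact 95% interval 4.24 to 20.1). It was above 0 in 0 of 67 such wells of the Epi columns, 0 of 31 of the ExE columns and 0 of 28 of the iXEN plate, which allows shares of up to 4.48%, 9.68% and 10.7% by 3 counts and 5.36%, 11.2% and 12.3% by the exact upper bound. *Pdgfa* was above 0 in 3 of the 67 Epi-column wells and 1 of the 68 VE-column wells, and *Pdgfb* in 1 iTSC well (0.877%).

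*Pdgfa* varied within the ExE columns together with some trophoblast genes. This was looked for after the values of the gene had been seen and is a description. Of 8125 genes above 0 in at least 25% of these cells, *Bmp8b*, a growth factor of the extraembryonic ectoderm, had the highest Spearman correlation, 0.43 in the mean of the 3 plates (lowest plate 0.35), and *Tinagl1* and *Dusp9* (both 0.38) were also among the highest. *Pdgfa* was above 0 in 67.2% of the ExE-column cells with *Bmp8b* (78 cells, mean 0.656 TP10k) and in 24.1% of those without it (57 cells, mean 0.213 TP10k), *Bmp8b* being above 0 in 32.9% of the block. In iTSC the order was not the same, with *Pdgfa* in 90.2% of the cells with *Bmp8b* (mean 1.13 TP10k) and in all 8 without it (mean 1.42 TP10k). The ExE-column cells with *Bmp8b* had a median of 5891.5 genes and those without 5121, and the part of this difference in the result was not tested. The correlation with *Hand1*, a trophoblast transcription factor, was 0.36, and that with *Cdx2*, a trophoblast stem cell factor and transgene of these cells, -0.08.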
